A study of Mus musculus with 12 samples.

Results

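The regions described here were bound by BATF in Th9 cells according to the peak lists and had no peak in the Th17 lists. BATF chromatin immunoprecipitation followed by sequencing (ChIP-seq) was done on C57BL6/J mouse cells, with BATF libraries 1 and 2 from Th9 cells and 3 and 4 from Th17 cells. The controls of each BATF library were input DNA and an IgG precipitate carrying the same number. Both cell types were grown in vitro from naive CD4+CD62L+ T cells stimulated with anti-CD3 and anti-CD28. Th9 cultures received IL-4, IL-2, TGF-β1 and anti-IFNγ, and Th17 cultures received IL-6, TGF-β1, IL-23, IL-1β and antibodies to IFNγ, IL-4 and IL-2. Cells were collected at the end of culture without restimulation. The labels name no genetic change in either group, give no age and do not say whether the libraries of a cell type came from separate mice. The lists hold peaks and no RNA, so the cell types could not be checked against marker genes.

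Members were chosen by peak calls alone. A peak called against input and IgG together in library 1 or 2 was kept if it overlapped a peak of the same library called against input only and another called against IgG only, and if no peak of the 6 Th17 lists overlapped it by 1 bp or more. Kept peaks that shared 1 bp were merged, which gave 1101 regions. The remaining 183 Th9 regions overlapped a Th17 peak and are called shared, so that 85.7% of 1284 Th9 regions were Th9-only (exact 95% binomial interval 83.7 to 87.6%). Across both cell types 4032 regions passed the same requirement of a peak against each control, and 2711 of the Th17 regions had no Th9 peak by the mirror of the rule. Intervals cover counting error only, and a region without a Th17 peak lay below the threshold of those libraries and was not shown to be unbound.

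BATF is a basic leucine zipper factor of the AP-1 family. It pairs with JUN proteins on AP-1 sites and, together with IRF4 or IRF8, on composite elements in which an AP-1 site stands next to an IRF half-site. Mouse T cells that lack BATF make little IL-17 or IL-9. In Th9 cells, which are defined by IL-9 secretion, it acts beside STAT6 downstream of IL-4 and STAT5 downstream of IL-2.

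Sequence from several Th9-only regions is shown here to let the motif matches be seen, from GRCm38.p6 (mm10), forward strand, with the summit and the match both included. The first set holds AP-1 sites (TGACTCA or, on the other strand, TGAGTCA, in capitals) in regions nearest to genes of T helper cell lists and in a pair of regions called in both Th9 libraries.
Rbpj, chr5:53430317-53430364: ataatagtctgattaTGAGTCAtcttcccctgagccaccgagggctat
Gata3, chr2:9659040-9659149: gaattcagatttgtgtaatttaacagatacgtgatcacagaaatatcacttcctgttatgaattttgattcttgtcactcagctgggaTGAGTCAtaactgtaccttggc
Ahr, chr12:35563012-35563056: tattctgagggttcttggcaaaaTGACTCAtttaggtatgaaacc
Havcr2, chr11:46474428-46474466: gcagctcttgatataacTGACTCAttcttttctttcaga
Stat5b, chr11:100844307-100844383: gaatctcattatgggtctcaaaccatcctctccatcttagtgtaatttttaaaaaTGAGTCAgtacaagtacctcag
Eea1, chr10:95998419-95998500: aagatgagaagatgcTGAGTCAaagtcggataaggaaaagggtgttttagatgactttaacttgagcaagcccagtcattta
4930529L06Rik, chr16:84646435-84646496: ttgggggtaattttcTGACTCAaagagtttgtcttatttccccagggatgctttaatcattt

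The second set holds the BATF-IRF composite, searched as an AP-1 site with GAAA directly before it, or with TTTC and then 4 bases before it, on either strand. The whole composite is in capitals.
Frzb, chr2:80462015-80462085: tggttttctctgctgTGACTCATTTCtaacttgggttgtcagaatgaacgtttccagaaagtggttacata
Zmynd11, chr13:9767456-9767525: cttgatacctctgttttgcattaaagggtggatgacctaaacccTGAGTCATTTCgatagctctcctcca
Ccn4, chr15:66862017-66862061: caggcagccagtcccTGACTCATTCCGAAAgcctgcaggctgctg
Aff4, chr11:53347418-53347482: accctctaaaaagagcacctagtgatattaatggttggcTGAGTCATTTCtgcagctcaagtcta
Bcl11b, chr12:107970139-107970202: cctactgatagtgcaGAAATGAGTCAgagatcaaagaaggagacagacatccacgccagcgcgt
Tox, chr4:6960126-6960174: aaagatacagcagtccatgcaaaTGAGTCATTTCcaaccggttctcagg

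The third sequence is from the Il9 promoter region, where a STAT site (TTCNNNGAA, in capitals) was centred 98 bp to the left of the summit. Part of that site lies outside the window of 100 bp to either side used for the motif counts, so this region is not among those counted below as holding a STAT site.
Il9, chr13:56482534-56482666: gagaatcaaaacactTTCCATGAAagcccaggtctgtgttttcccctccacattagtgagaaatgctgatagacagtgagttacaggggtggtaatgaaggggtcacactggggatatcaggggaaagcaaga

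The Th9 libraries contributed very unequally. Library 1 held 1024 members and library 2 held 91, and 14 regions were called in both. Of the peaks found against each control, 87.2% of 1174 in library 1 and 54.5% of 167 in library 2 were kept by the rule. The Th17 lists used for removal were more unequal still, with 4111 peaks in library 3 and 199 in library 4 against input and IgG together. The same list held 1709 peaks in library 1 and 241 in library 2. Fold enrichment, which compares the summit with its local background, had a median of 5.54 in library 1 (quartiles 5.03 and 6.54) and 6.36 in library 2 (quartiles 5.33 and 7.47). The median −log10 q was 3.82 in library 1 and 4.62 in library 2. Shared regions had medians of 8.08 and 10.2. Values fell on few levels, since the 1024 members of library 1 had 94 distinct fold enrichments after rounding to 2 decimals and the 3 commonest held 41.0% of them. Both measures entered the calls that chose the members and are given as a description.

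**Figure D1:**
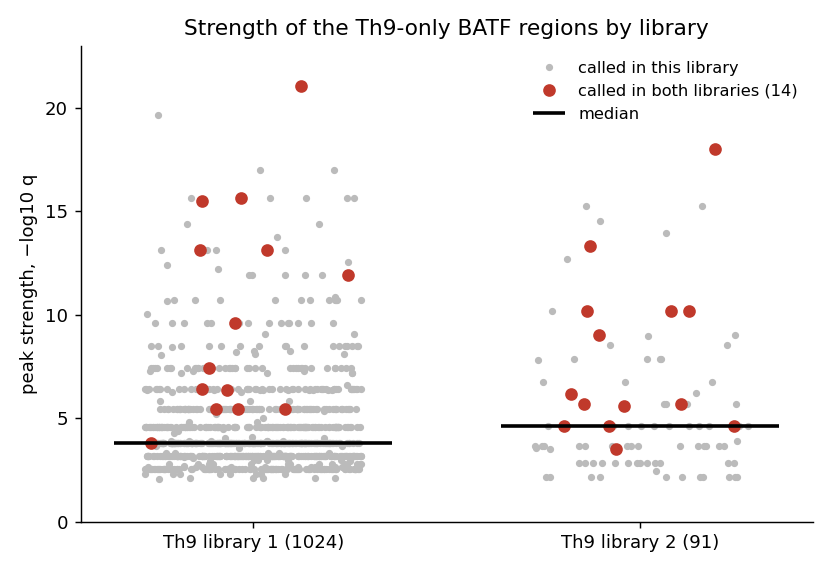
Peak strength (−log10 q, vertical axis) of each Th9-only region in Th9 library 1 (1024 points) and library 2 (91 points), with the 14 regions called in both in red and medians as bars. Most points lie close to the medians of 3.82 and 4.62, and values in library 1 reach 21.05 and in library 2 reach 18.01.

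At the edge of the rule, the members with the lowest −log10 q had 2.05 (nearest gene Olfr403) and 2.11 (among them Med23, Tspoap1 and Gm3045). The member closest to a Th17 peak lay 95 bp from it (nearest gene Mir509), followed by gaps of 334 bp (Klf7) and 462 bp (B930018H19Rik). On the other side, the removed regions with the smallest overlap shared 65 bp (P2ry1), 70 bp (Plekhf1) and 72 bp (Kdm1a) with a Th17 peak. By strength many members were near the edge, with 185 of the 1101 at −log10 q of 2 to 3 and 580 from 3 to 5. By distance to a Th17 peak few were. Only 6 of 1101 lay within 1000 bp of a Th17 peak and 46 within 10000 bp, and the median gap was 180908 bp.

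The 14 regions called in both Th9 libraries were examined one by one. Of these, 7 were intronic, 6 intergenic and 1 lay in a promoter, and 4 had an AP-1 site within 100 bp of the summit. The strongest member of all was intergenic, 32285 bp upstream of B930018H19Rik, with fold enrichments of 13.1 and 6.94 and −log10 q of 21.05 and 5.67 in libraries 1 and 2. It had no AP-1 site, and a Th17 peak lay 462 bp away, so a rule that also removed regions within 1 kb of a Th17 peak would have left it out. The highest value in library 2 was in an intron of Gm34758, at 7.55 and 12.3-fold with −log10 q of 7.43 and 18.01.

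An intron of Skap1, which encodes an adaptor that links the T cell receptor to integrins, held a region of 11.1 and 9.07-fold, with −log10 q of 15.6 and 10.2 (the nearest start site is that of Snx11). A region 10006 bp upstream of Cd83, a surface protein of activated lymphocytes and dendritic cells, had 7.05 and 8.54-fold enrichment and −log10 q of 6.42 and 9.01. The only promoter in this set was at Mef2c, a MADS-box transcription factor, 875 bp upstream of a transcript start inside the gene and downstream of its first start, where enrichment was 6.54 and 9.07-fold and −log10 q 5.46 and 10.2. That window held a STAT site and no AP-1 site.

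The 4 regions of this set with an AP-1 site included 2 intronic ones. The region in Eea1, which encodes an endosomal tethering protein, was enriched 10.05 and 6.94-fold with −log10 q of 13.2 and 5.67. Upstream of Frzb, a secreted Wnt antagonist, a region at 14674 bp carried the composite printed above and had 6.54 and 9.07-fold enrichment. The region 33308 bp upstream of 4930529L06Rik had 6.54 and 6.59-fold. In an intron of Bin1, a membrane-curvature protein, enrichment was 10.9 and 10.2-fold with −log10 q of 15.5 and 13.3. The other members of the 14 were in introns of Pmp22, Nol10 and Vmn1r32 and in intergenic sequence nearest to Tbl1xr1 and Gm13219, with −log10 q between 3.53 and 13.2 in either library.

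Strong regions called in a single Th9 library were also named. In library 1 the highest was 1937 bp upstream of Aebp2, which encodes a partner of Polycomb complex PRC2, with 12.6-fold enrichment and −log10 q of 19.7. Regions nearest to Smarce1, a subunit of the BAF chromatin remodelling complex, and Gm30957 followed at 11.6-fold and 17.0. Those nearest to Efcab3, Zmynd11 and Ccn4 and those in introns of Lpp and of the calcium channel gene Itpr1 all had −log10 q of 15.6. Of these 8 single-library regions, Efcab3, Zmynd11, Ccn4 and Itpr1 had an AP-1 site. In library 2 the highest such regions were in an intron of the anti-apoptotic gene Bcl2 and in an intron of Chtf8, both at 11.2-fold with −log10 q of 15.3. A distal region 349204 bp upstream of the first Mef2c start followed with 10.8-fold, the second member assigned to this gene. Regions nearest to Mir3089 (10.04-fold), Rbpj (10.1-fold) and Aff4 (9.07-fold) completed the list, and all 3 had an AP-1 site. At the Aff4 region a peak was also called in library 1, against input only (9.06-fold, −log10 q of 10.8), which did not meet the rule.

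Whether a Th9-only peak of library 2 recurred in library 1 was read from lists that had not chosen the library 2 peaks. The groups compared were not neutral, however. Shared peaks had by definition been called again in a Th17 library, and Th9-only peaks had not. A difference in recurrence is partly built into that split, so the test below cannot separate cell type from how readily a peak is called again. Of 91 Th9-only peaks of library 2, 18 overlapped a peak in any of the 3 lists of library 1 (19.8%, exact 95% interval 12.2 to 29.4%). For the 76 peaks of library 2 that overlapped a Th17 peak the number was 52 (68.4%, 56.7 to 78.6%). Without regard to strength, the difference of −48.6 percentage points passed the test (two-sided Fisher's exact test, p = 1.71e-10). Strength differed between these peaks, so the shares were also read within ranges of −log10 q. From 8 upwards, 8 of 16 Th9-only peaks and 37 of 50 shared peaks recurred. Between 5 and 8 the numbers were 5 of 17 and 12 of 18. Between 3 and 5 they were 5 of 33 and 1 of 5, and from 2 to 3 they were 0 of 25 and 2 of 3. Within these ranges the difference did not pass from 8 upwards (Fisher's exact p = 0.121) or from 3 to 5 (exact p = 1), and the unadjusted exact p was 0.0437 from 5 to 8 and 0.00794 from 2 to 3. In the opposite direction, 15 of 1024 Th9-only peaks of library 1 (1.46%) and 54 of its 150 shared peaks (36%) overlapped a peak of library 2.

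To determine which motifs mark the Th9-only regions, 11 motifs were searched on both strands within 100 bp of the summit (201 bp in all) and in windows of the same size 2 kb to either side. AP-1 sites were found in 131 of 1101 regions (11.9%, exact 95% interval 10.04 to 13.96%) and in 3.86% of flanks. The site was in the region alone in 127 cases and in the right flank alone in 34 (exact McNemar test, two-sided, Benjamini-Hochberg adjusted over 11 motifs, p = 8.71e-13). Both libraries showed it on their own, with 11.3% against 3.91% in flanks for library 1 (adjusted exact p = 1.46e-10) and 20.9% against 2.75% for library 2 (adjusted exact p = 0.00243). Across all 4032 regions of both cell types, 19.3% held an AP-1 site.

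The BATF-IRF composite was rare but absent from every flank. It was present in 16 regions (1.45%, 0.833 to 2.35%) and in 0 of 2202 flanks (exact 95% upper bound 0.167%; adjusted exact p = 0.000168), and 1.61% of all regions of the series held it. Library 2 had 3 such regions of 91 (3.30%), too few for its own test to pass (adjusted exact p = 0.639). Besides the 4 composite regions already described, these were found in an intron of Bcl11b, a zinc finger factor that maintains T cell identity, with −log10 q of 7.43 in library 1, and in an intron of Tox, an HMG-box factor of T cell development, with 3.68 in library 2. Others were nearest to Cd55, Ubald2, Klf7, Nrp2, Mbd5, Gm11478, Gm5087, Gm4013, Pign and Plb1. These genes were named after their motif was seen.

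RUNX sites (TGTGGTT), recognised by a family of factors that includes Runx1 and Runx3 in T cells, were in 89 regions (8.08%, 6.54 to 9.85%) and 4.59% of flanks (adjusted exact p = 0.00401). The difference had the same direction in library 1 (7.81% against 4.59%) and library 2 (13.2% against 3.85%), and in library 2 alone it did not pass (adjusted exact p = 0.639). RUNX sites were not particular to Th9-only regions, since 7.81% of all regions of the series held one. Th17-only regions had 7.41% against 4.87% in their flanks (adjusted exact McNemar p = 0.00168), and shared regions had 12.02%. Whether the RUNX share differed between these sets was not tested.

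STAT sites were in 111 regions (10.1%, 8.37 to 12.01%) and 7.08% of flanks (adjusted exact p = 0.00779). This difference was less secure. The left flank held the site in 7.72% of cases and the right in 6.45%, and with the left flank in the test the adjusted exact p was 0.133. Within 50 bp of the summit the excess was 1.41 points (adjusted exact p = 0.445). The wider STAT6 spacing, TTC and GAA with 4 bases between, was in 7.08% of regions and 5.31% of flanks and did not pass (adjusted exact p = 0.298). STAT sites stood in 23 of the 131 regions with an AP-1 site (17.6%, 11.5 to 25.2%) and in 88 of the 970 without one (9.07%, 7.34 to 11.1%). This difference was not tested, and regions with an AP-1 site were also stronger (median −log10 q of 5.46 against 3.82). An excess of STAT sites over flanks was not particular to Th9-only regions. Th17-only regions had 8.34% against 6.77% in their flanks (adjusted exact McNemar p = 0.0174). Shared regions had 12.02% against 6.01%, which did not pass (adjusted exact McNemar p = 0.361).

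No other motif passed the test. ETS sites (AGGAAGT) were in 6.45% of regions and 4.68% of flanks, NFAT sites (TGGAAAA) in 7.54% and 5.99%, and isolated IRF sites (GAAA, 2 bases, GAAA) in 3.18% and 2.63%. GATA sites (AGATAA) had 13.5% and 13.4%, and ROR sites (TAGGTCA), named for the family of the Th17 factor RORγt, had 2.18% and 2.13%. The CRE (TGACGTCA) was in 0 of 1101 regions (exact 95% upper bound 0.334%) and in 0.136% of flanks. None of the 11 motifs was matched in 535 regions (48.6%).

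**Figure D2:**
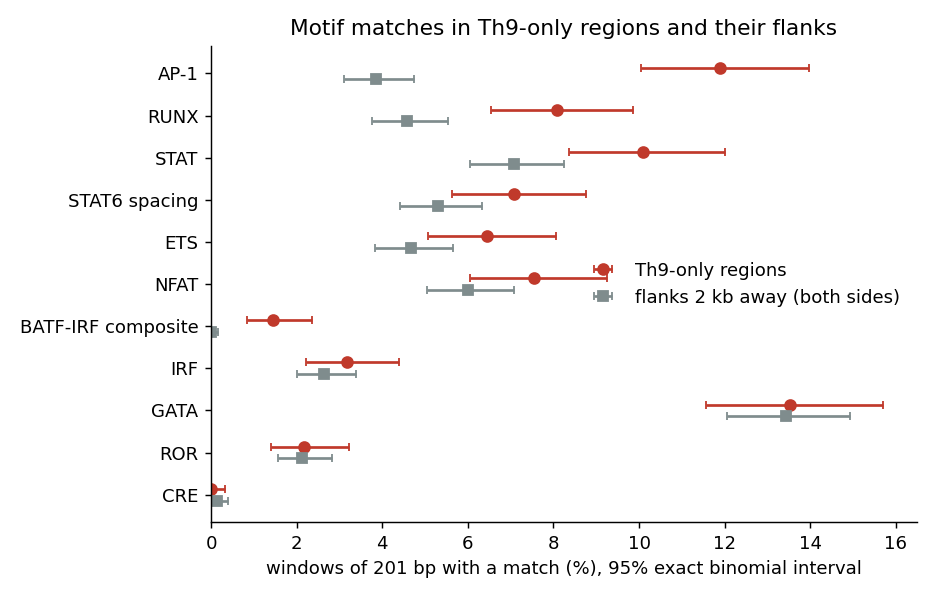
Share of 201 bp windows with a match (horizontal axis, %) for each of 11 motifs in the 1101 Th9-only regions (circles) and in flanks 2 kb to both sides (squares), with exact 95% binomial intervals. AP-1 stands at 11.9% against 3.86%, while GATA stands at 13.5% against 13.4%.

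AP-1 sites were concentrated at the summit. The site nearest to the summit lay at a median distance of 32 bp, within 25 bp in 57 of 131 regions and within 50 bp in 91. In the 50 bp to the left of the summit there were 1.02 sites per 1000 bases in Th9-only regions and 5.68 in shared regions, and 450 to 500 bp away the Th9-only regions had 0.145 on the left and 0.163 on the right.

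**Figure D3:**
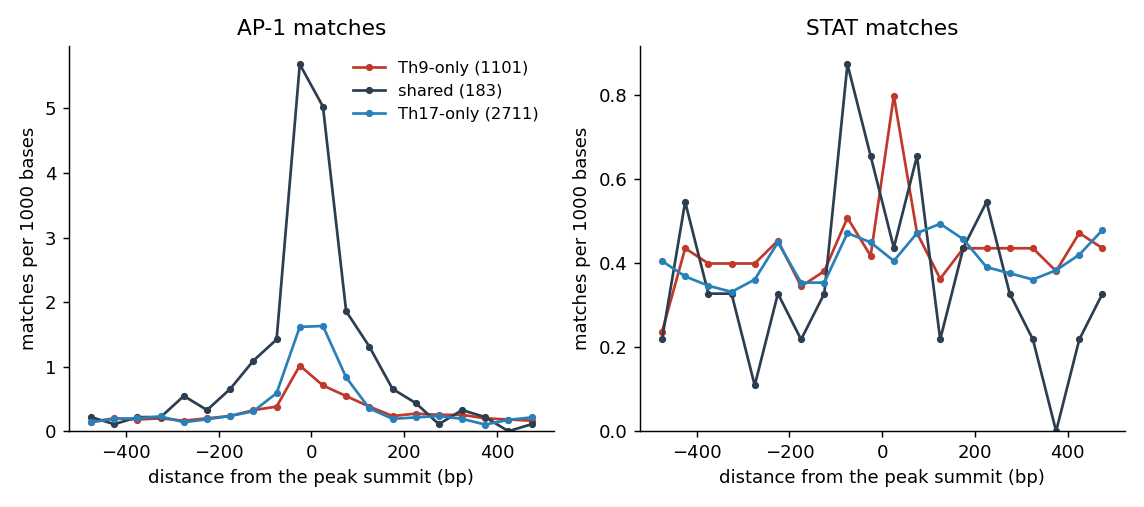
AP-1 matches (left) and STAT matches (right) per 1000 bases in bins of 50 bp by distance from the peak summit, for 1101 Th9-only, 183 shared and 2711 Th17-only regions. AP-1 peaks at the summit in all 3 sets, at 1.02 per 1000 bases in Th9-only and 5.68 in shared regions, and the STAT lines vary between neighbouring bins.

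Compared with shared regions, AP-1 sites were much less frequent in Th9-only regions. The share was 11.9% against 53.0% of 183 shared regions (45.5 to 60.4%), a difference of −41.1 points (two-sided Fisher's exact test, adjusted over 8 comparisons, p = 2.86e-32). The composite, which contains an AP-1 site by its definition, was in 1.45% against 6.56% (adjusted exact p = 0.0005), and this is not a separate result. Among regions with an AP-1 site its share was 12.2% of 131 in Th9-only and 12.4% of 97 in shared regions. STAT sites did not pass, at 10.1% against 12.02% (adjusted exact p = 0.576). The AP-1 difference held for each Th9 library alone, at −42.7 points for library 1 (adjusted exact p = 1.94e-29) and −29.1 points for library 2 (adjusted exact p = 0.00112). The sets also differ in how often their peaks were called. Each shared region had a Th17 peak besides its Th9 peak, whereas only 14 Th9-only regions were called in both Th9 libraries. The comparison therefore cannot separate sharing with Th17 cells from being called again. Of those 14 regions, 4 held an AP-1 site (28.6%, 8.39 to 58.1%). That interval overlapped the one of shared regions, and the difference was not tested.

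Against the 2711 Th17-only regions the AP-1 share was lower by a smaller amount, 11.9% against 19.5% (18.04 to 21.06%; adjusted Fisher's exact p = 3.02e-08). This difference rested on library 1. The Th17-only set was also one-sided, with 2658 of its regions having a peak in library 3 and 85 in library 4. The contrast was therefore mainly that of library 1 with library 3, in which cell type and library cannot be told apart. The 91 regions of library 2 differed from Th17-only regions by 1.37 points in the other direction, which did not pass (adjusted exact p = 1). Neither the composite (1.25% in Th17-only regions, adjusted exact p = 0.730) nor STAT sites (8.34%, adjusted exact p = 0.143) passed the test.

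Stronger Th9-only peaks held AP-1 sites more often. It was 4.86% of 185 regions with −log10 q of 2 to 3, 8.10% of 580 from 3 to 5, 16.0% of 238 from 5 to 8 and 37.8% of 98 from 8 upwards (28.2 to 48.1%), while the flanks of these classes stayed between 2.97 and 4.22%. Th17-only regions had 6.59, 10.6, 21.6 and 45.4% in the same ranges. Shared regions differed from both, with 50% of 34 regions from 3 to 5 and 52.2% of 46 from 5 to 8, where the intervals did not overlap those of Th9-only regions. At 8 or more the shared regions had 54.5% of 99 (44.2 to 64.6%), which overlapped the Th9-only interval. Strength was used to call the peaks, and these shares within ranges are a description.

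**Figure D4:**
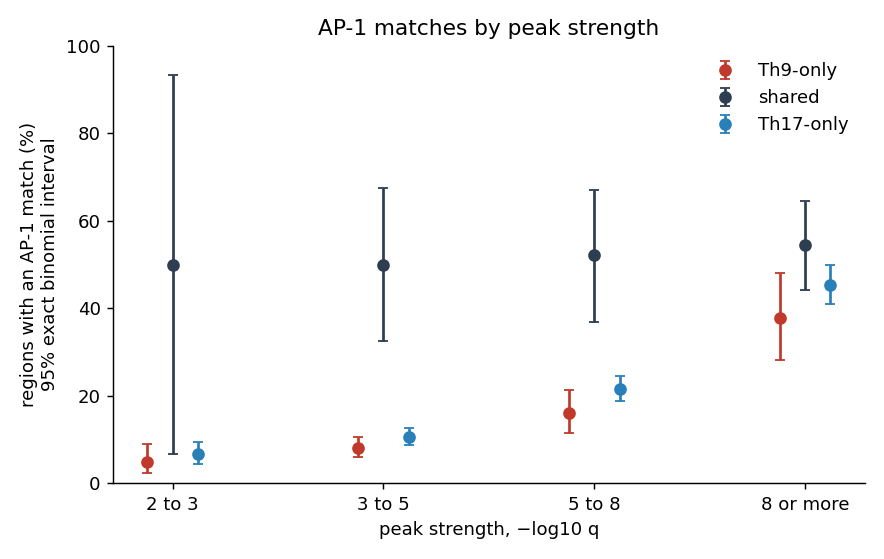
Share of regions with an AP-1 match (vertical axis, %, exact 95% binomial intervals) by range of −log10 q (horizontal axis) for Th9-only, shared and Th17-only regions. Th9-only regions go from 4.86% to 37.8%, whereas shared regions lie between 50% and 54.5%. The lowest range holds only 4 shared regions (50%, 6.76 to 93.2%).

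Th9-only regions were mostly distal. Introns held 466 (42.3%) and intergenic sequence 583 (53.0%) of the 1101 summits, while 28 (2.54%) lay within 1 kb of a start site, 9 in coding exons and 15 in UTRs or noncoding exons. The promoter share was 3.95% in Th17-only regions (adjusted Fisher's exact p = 0.0669) and 2.19% in shared regions (adjusted exact p = 1), and neither comparison passed. The median distance to the nearest start site was 45493 bp (quartiles 14187 and 130969 bp), beside 25644 bp in shared and 38233 bp in Th17-only regions. By library the medians were 48077 bp in library 1 and 23933 bp in library 2. Members with an AP-1 site lay at a median of 30785 bp and those without at 49027 bp.

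Repeat content set regions apart from their flanks, as a description. Bases masked as repeats in the genome sequence made up at least 50% of the window in 191 of 1101 regions (17.3%) and in 24.7% of flanks. The other sets also had fewer such windows than their flanks, with 16.5% against 24.4% for Th17-only and 8.20% against 20.5% for shared regions. Among members with an AP-1 site 8 of 131 were masked to this degree (6.11%, 2.67 to 11.7%) and among those without 183 of 970 (18.9%, 16.4 to 21.5%). Median GC content was 40.8% in regions and 41.5% in flanks. Members were spread over all chromosomes except Y, which had 0, at between 0.309 per Mb on chromosome 19 and 0.523 per Mb on chromosome 13, around a genome value of 0.404.

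The 1101 regions had 1013 nearest genes, of which 771 were protein-coding. Of these 1013 genes, 262 (25.9%) were also the nearest gene of a Th17-only region, which is 11.3% of the 2314 genes of that set. Among all 26180 genes, 8.84% were nearest to a Th17-only region and 3.87% to a Th9-only region. The overlap was not tested. Counted separately, 17 of the 1013 genes (1.68%) were also nearest to a shared region. A region was assigned to a gene by distance alone, and long or isolated genes collect more regions. Got2 had the most, with 5 members at 135640 to 1201314 bp upstream.

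Lists of T helper cell genes held 143 genes, and 22 of these (15.4%) were the nearest gene of at least 1 Th9-only region, beside 3.87% of all 26180 genes. For Th17-only regions the numbers were 39 of 143 (27.3%) and 8.84% of all genes. These shares are a description, since gene length and spacing were not matched. The 22 genes had 25 members, 23 from library 1 and 2 from library 2, with none called in both. Introns held 11 of the 25, intergenic sequence 13 and a promoter 1, and 8 had an AP-1 site.

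Among factors reported to act on Il9, 8 of 33 genes had a member. Th17-only regions were nearest to 9 of these 33 genes, and 4 genes had a region of each kind. The strongest was 219545 bp downstream of the start of Gata3, the master factor of the type 2 programme, with 10.6-fold enrichment and −log10 q of 14.4 in library 1, and its window held both an AP-1 and a STAT site. Rbpj, the DNA-binding partner of Notch, had a region 125430 bp upstream in library 2 (10.1-fold, 12.7) with both sites, and an intronic one in library 1 (7.55-fold, 7.43) with a STAT site only. A region 28038 bp upstream of Ahr, the ligand-activated aryl hydrocarbon receptor, had 9.06-fold enrichment and −log10 q of 10.7. In an intron of Stat5b, a transducer of IL-2 signals, 7.32-fold enrichment and −log10 q of 7.21 were found over a window with an AP-1 and a STAT site. Bach2, a bZIP repressor, had an intronic member of 7.24-fold and another 97614 bp upstream of 5.54-fold. Members in introns of Foxo1 (7.81-fold), Runx1 (7.03-fold) and Foxp1 (4.39-fold) held neither an AP-1 site nor a TTCNNNGAA site, and those of Foxo1 and Runx1 held the STAT6 spacing. A weaker Foxo1 member 40065 bp upstream (4.53-fold) lay in a window 93.5% masked as repeat.

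Cytokine and receptor genes followed. Among cytokines 2 of 16 genes had a member, Il9 and Il22. The Il9 region was 394 bp upstream of the start site, with 7.47-fold enrichment and −log10 q of 6.75 in library 2. In library 1 a peak was called there against input only (5.54-fold, −log10 q of 3.82). A second member lay 24964 bp upstream of Il9 and nearer to Fbxl21, with 5.48-fold and −log10 q of 3.55 in library 2 and no peak in library 1. A further member lay 62190 bp downstream of the Il9 start and nearer to Gm3045. It had 4.02-fold and −log10 q of 2.11 in library 1 and no peak in library 2. Il22, which encodes an epithelium-directed cytokine, had one at 26114 bp upstream (6.54-fold). At the Il17a and Il17f locus no member was found. The Th9 library 1 peak there, 9905 bp downstream of the Il17a start (7.05-fold), overlapped peaks of both Th17 libraries.

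Of genes for costimulatory, checkpoint and TNF superfamily receptors, 3 of 19 had a member. Havcr2, which encodes the inhibitory receptor TIM-3, held an intronic region of 9.38-fold with −log10 q of 12.6, and its AP-1 site was centred 5 bp from the summit. A region 2539 bp upstream of Tnfrsf9, the costimulatory receptor 4-1BB, had 4.83-fold and −log10 q of 3.32, also with an AP-1 site. Cd226, an activating receptor, had the third, in an intron of Dok6 and 275994 bp downstream of the Cd226 start, at 6.54-fold.

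In the IL-4, STAT6 and type 2 list, 3 of 17 genes had a member, with Il1rl1, the IL-33 receptor (7.03-fold, AP-1 site), and Areg, an EGF receptor ligand (6.54-fold), beside Gata3. The IL-2 and STAT5 pathway had 3 of 20, Stat5b, Prdm1 (7.59-fold), which encodes Blimp-1, and the kinase gene Pim1 (4.47-fold, in a window 98.0% masked as repeat). The TGF-beta list had 2 of 16, Tgfbr2 (5.03-fold), a receptor subunit, and Smad6 (5.54-fold), an inhibitory SMAD. The AP-1, BATF and partner list had 3 of 25, Batf3 (7.05-fold), Jun (6.04-fold) and Bach2. The Th17 list had 3 of 20, Ahr, Il22 and Il6st (5.36-fold), which encodes the shared receptor gp130. In a list of genes taken from the qPCR assays of the same work, 4 of 20 had a member, Bach2, Foxo1, Jun and Stat5b. Of the 22 listed genes with a member, 9 were also nearest to a Th17-only region. By list, Th17-only regions were nearest to 3 of 17 type 2 genes, 6 of 20 IL-2 and STAT5 genes and 1 of 16 TGF-beta genes. They were nearest to 7 of 25 AP-1 and partner genes, 9 of 20 Th17 genes and 3 of 20 qPCR genes. For cytokines and receptors the numbers were 3 of 16 and 10 of 19.

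**Figure D5:**
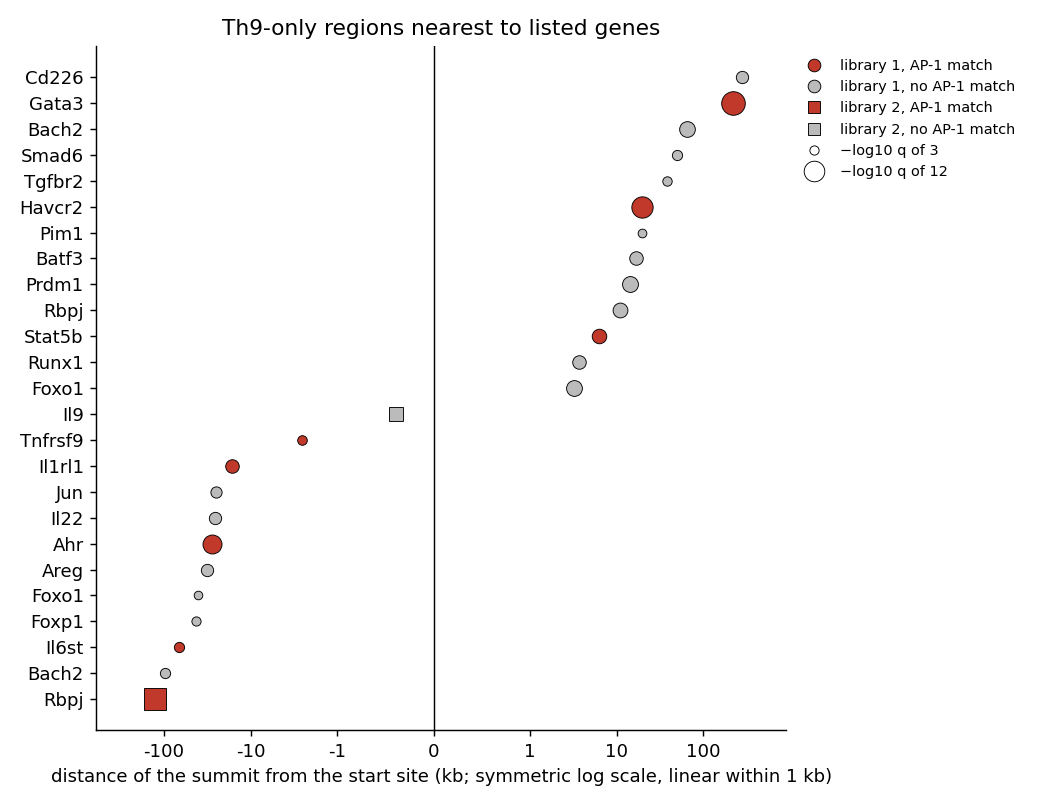
Distance of each of the 25 Th9-only regions from the start site of its nearest listed gene (horizontal axis, kb, symmetric log scale), with colour for an AP-1 match, shape for the library and size for −log10 q. Only Il9 has a region within 1 kb of its start, and the largest symbol is that of Gata3, with −log10 q of 14.4.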

How the data were processed

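BATF ChIP-seq peak lists from 2 Th9 and 2 Th17 libraries were used, 12 lists in all, with each library called against input, IgG, or both. Per the study's methods, reads were trimmed (Trim Galore 0.4.3 in the submitters' processing notes), aligned to mm10 with Bowtie2 and called with MACS2 (2.1.0 in those notes) in paired-end mode with duplicates kept and a q threshold of 0.01. Whether problem regions were filtered is not given in the sources used here. The authors deposited for each peak a fold enrichment (a ratio to the local background) and the −log10 q-value. The lists hold no read counts, so depth is unknown and no interval uses it.

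Regions were built as described above, and the summit of the peak with the higher −log10 q stood for a merged region. Windows were 201 bp on GRCm38.p6, and genes were curated RefSeq transcripts (release 108.20200622, 26180 genes). Tests were exact McNemar and Fisher's exact tests (SciPy 1.17.1) with Benjamini-Hochberg adjustment. They treat regions as units and compare positions, not cultures, and regions of 1 library share its error. The calculations were tested on simulated data. Named genes were those nearest to regions called in both Th9 libraries, those of the 10 regions with the highest −log10 q per library, listed genes with a member, Il9 and the Il17a and Il17f locus. Members, motifs and gene lists were chosen with earlier results of these data known. Where a region is given as downstream, the distance runs from the start site into or past the gene. Distances are to the nearest start of any curated transcript, which can lie inside the gene.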

Additional observations from a re-analysis of the deposited data

How the results depend on the processing

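Of 81 values recomputed under alternatives, 70 kept their direction and their side of the threshold, or moved by less than the spread between the Th9 libraries (counts by less than 1.5 times). With a minimum −log10 q of 5, the rule gave 336 regions, 3.87% of them within 1 kb of a start site, and the AP-1 difference from Th17-only regions turned to 2.81 points (adjusted exact p = 0.349), since weak Th9 regions alone were left out. With that minimum for both cell types, an alternative chosen after seeing the data, it was −8.53 points (adjusted exact p = 0.00935). Leaving out each Th9 library in turn gave 91 to 1024 regions, a composite excess of 1.37 to 3.30 points and a STAT excess of 2.78 to 8.24 points. It gave a promoter share of 2.54 to 3.30%, a median distance of 23933 to 48077 bp, and an AP-1 difference from Th17-only regions of −8.18 to 1.37 points. The calls for the composite, STAT sites and the AP-1 difference from Th17-only regions were lost without library 1. The STAT excess was 1.41 points within 50 bp of the summit and 3.00 points with the left flank in the test, and neither passed. The causes were not tested. No paired analysis was possible because a number joins a BATF library only to the controls made with it, and the Th9 libraries (1 and 2) and Th17 libraries (3 and 4) share no number. Depth is unknown, and the peak number of each library limits what can be called absent.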

Other observations

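Members lying close together were looked at separately. Within 10 kb of one another there were 8 pairs, 16 of 1101 regions, and no larger group. The closest pair lay 1450 bp apart in an intron of Arhgap15, which encodes a Rac GTPase-activating protein of haematopoietic cells, with 1 region from library 1 (5.54-fold) and the other from library 2 (8.002-fold). Another intronic region of the same gene, 101609 bp upstream of its nearest start site (that of Arhgap15os), had 10.05-fold enrichment, −log10 q of 13.2 and an AP-1 site in library 1. The strongest pair was in Nup93, a nuclear pore gene, at 8.85 and 9.06-fold with −log10 q of 12.2 and 10.7, and 1 of its regions had an AP-1 site. Runx2, a RUNX family factor, held 3 intronic members in library 1, with 4.53, 5.03 and 7.55-fold enrichment, a pair of which were 8299 bp apart, and none of them had an AP-1 site.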
